A study of Mus musculus with 6 samples.

Results

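The genes described here are 10 members of the Serpina cluster on mouse chromosome 12, out of 32061 genes listed in a table of read counts. They were taken by symbol and chosen by their counts in the senescent and healthy libraries: Serpina1a, Serpina1b, Serpina1c, Serpina1d and Serpina1e, Serpina3c, Serpina3k, Serpina3m and Serpina3n, and Serpina6. Because the choice had the comparison of these groups in view, the members' levels and fold changes in that comparison are given as a description and without a test. Where a member is said to be called, the call comes from the fit of all genes and is likewise only a description. RNA was sequenced from hepatocytes, the main metabolic and secretory cells of the liver, freed by collagenase perfusion from mice 10 to 12 weeks old, with 3 libraries labelled senescent and 3 labelled healthy. The senescent libraries came from AhCre+Mdm2fl/fl mice, which carry a Cre recombinase whose promoter is switched on through the aryl hydrocarbon receptor, and Mdm2 alleles that Cre can delete. The healthy libraries came from AhCre- mice, and the sources used here do not give their Mdm2 alleles, so the effects of Cre and of Mdm2 loss cannot be told apart. All mice of both groups had received β-naphthoflavone, an aryl hydrocarbon receptor ligand, intraperitoneally in corn oil at 20 mg/kg for 48 h. Nothing in the labels says whether the libraries of a group came from separate animals, so the errors below measure the spread between libraries, which may be technical.

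Serpins are protease inhibitors that work as bait. A protease cuts an exposed stretch near the end of the serpin, the reactive centre loop, and is then trapped in a covalent complex, so the residues of the loop decide which proteases are caught. The Serpina1 genes encode forms of alpha-1-antitrypsin, which hepatocytes secrete in large amounts and which in humans is the main plasma inhibitor of neutrophil elastase. Which proteases each mouse copy inhibits was not measured here. Humans have a lone SERPINA1 gene, while mice carry several close copies. The Serpina3 genes are the mouse relatives of human alpha-1-antichymotrypsin and have also multiplied in rodents. Serpina3k is a plasma serpin made by the liver, and Serpina3n is an inhibitor of granzyme B and other serine proteases and a well-known acute phase gene of liver and brain. Serpina6 encodes corticosteroid-binding globulin, which has the serpin fold but carries glucocorticoids in plasma instead of inhibiting proteases.

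The close copies share reads. The 5 Serpina1 coding sequences were 96.3% to 98.5% identical to each other in GENCODE M21 transcripts (build GRCm38), with Serpina1a and Serpina1c the closest pair. The Serpina3 members were 82.6% to 91.0% identical, Serpina3k and Serpina3m being the closest. Of all 75-base windows along the Serpina1a transcript, 69.6% were also present, letter for letter, in a transcript of another gene, and 62.8% in Serpina1c. The share was 66.1% for Serpina1c, 37.1% for Serpina1d, 32.9% for Serpina1b and 24.2% for Serpina1e. It was much smaller in the Serpina3 group, at 9.66% for Serpina3m, 7.36% for Serpina3k, 1.46% for Serpina3n and 0.327% for Serpina3c, and no window of Serpina6 was found in another gene. The sources used here give neither the read length nor how the counting treated reads that match several genes. The split of reads among the Serpina1 copies is therefore uncertain, and their sum rests less on it than any single copy does. Reads left uncounted because they match several genes would be missing from the sum as well. The sum also leaves out Gm8893, a pseudogene among the Serpina1 copies, of whose 75-base windows 38.7% occur in these genes. Serpina3n, Serpina3c and Serpina6 share the fewest windows of the 10 members. The Serpina3k and Serpina3m gene models also share 60 exonic bases on the same strand. Serpina1c overlaps an antisense gene model by 429 exonic bases, and the strand setting of the counting is likewise not given.

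**Figure D1:**
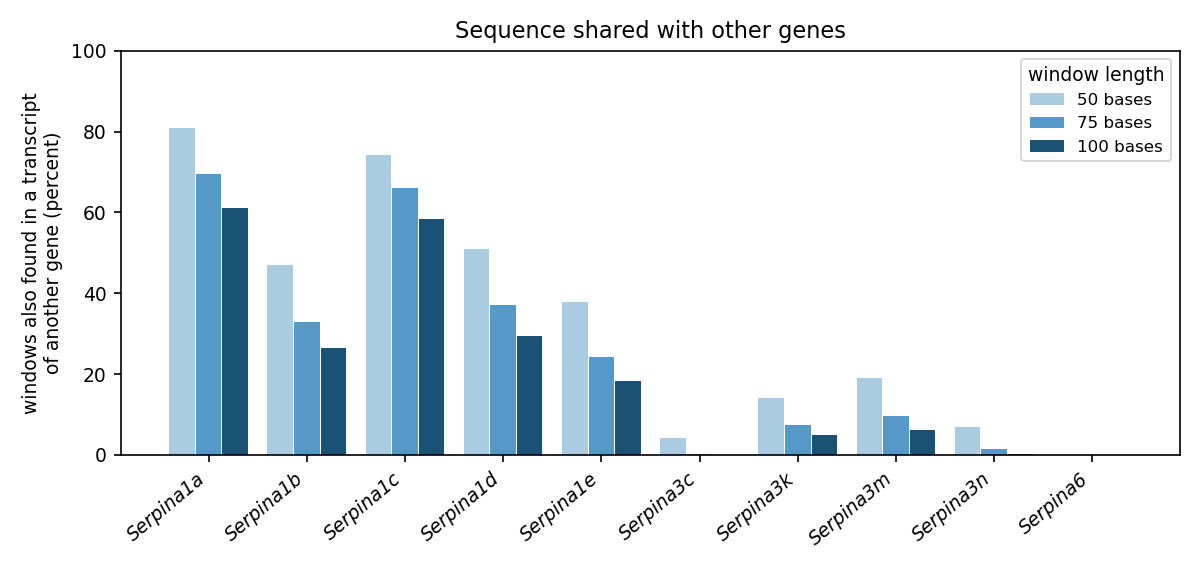
Percent of the windows of 50, 75 or 100 bases along each member's transcript (x axis: the 10 genes) that occur letter for letter in a transcript of another gene. Bars start at 0. At 75 bases the share is 69.6% for Serpina1a and 66.1% for Serpina1c, below 10% for each Serpina3 gene and 0 for Serpina6.

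The stretch of the Serpina1 copies that faces the protease differs more between them than the rest of the coding sequence does on average. The lines below give the coding sequence of the reactive centre loop, 75 bases within a coding exon of each gene, with capitals at the 18 bases where the 5 genes are not all alike. Those 18 bases are 24% of the stretch, against 68 of 1167 bases (5.83%) in the rest of the coding sequence. Between pairs of genes the loop differed at 5 bases (Serpina1c and Serpina1d) to 12 bases (Serpina1e with Serpina1a or with Serpina1c).
Serpina1a, chr12:103853756-103853830 minus strand: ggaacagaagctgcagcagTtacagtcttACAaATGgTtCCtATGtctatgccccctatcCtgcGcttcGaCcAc
Serpina1b, chr12:103728323-103728397 minus strand: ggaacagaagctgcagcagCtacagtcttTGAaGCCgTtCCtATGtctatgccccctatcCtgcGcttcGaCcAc
Serpina1c, chr12:103895093-103895167 minus strand: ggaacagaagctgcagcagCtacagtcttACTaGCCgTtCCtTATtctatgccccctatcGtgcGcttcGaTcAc
Serpina1d, chr12:103763761-103763835 minus strand: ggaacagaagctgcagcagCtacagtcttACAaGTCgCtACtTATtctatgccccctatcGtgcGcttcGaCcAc
Serpina1e, chr12:103947099-103947173 minus strand: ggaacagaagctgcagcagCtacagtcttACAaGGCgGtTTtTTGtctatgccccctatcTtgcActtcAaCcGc

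The matching stretch of the Serpina3 genes is 78 bases in Serpina3k and 84 bases in Serpina3m and Serpina3n. It is shown in lower case throughout, since the lengths differ.
Serpina3k, chr12:104345269-104345346 plus strand: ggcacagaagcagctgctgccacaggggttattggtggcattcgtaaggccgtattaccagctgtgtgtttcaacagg
Serpina3m, chr12:104393769-104393852 plus strand: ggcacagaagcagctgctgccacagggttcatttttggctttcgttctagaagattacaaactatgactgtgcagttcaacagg
Serpina3n, chr12:104413448-104413531 plus strand: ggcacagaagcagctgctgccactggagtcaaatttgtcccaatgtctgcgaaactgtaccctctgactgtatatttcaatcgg

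The labels were checked first. Mdm2, the target of the floxed allele and the gene of the ubiquitin ligase that holds p53 low, lies at chr10:117688875-117710758. Levels are in CPM, read counts relative to each library's total after scaling by the trimmed mean of M values (TMM). Mdm2 had 465, 463 and 501 CPM in senescent replicates 1, 2 and 3 and 19.03, 22.7 and 22.0 CPM in healthy replicates 1, 2 and 3. Reads of the gene named as deleted were thus higher in the libraries labelled senescent. Counts per gene do not show which exons were read, and the labels do not name the floxed exons, so this value checks nothing about the deletion. Cdkn1a, a p53 target whose product p21 blocks the cell cycle, went from 35.6 ± 16.98 CPM in the healthy group to 717 ± 60.04 CPM in the senescent group (SD, n = 3 each; adjusted p = 4.4e-05 by edgeR's quasi-likelihood test with Benjamini-Hochberg adjustment).

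The depth ran from 28799392 to 33267299 counts in healthy and from 29992707 to 32210591 counts in senescent libraries, and no library was a copy of another. Over 12949 genes with enough reads, 41.1% were called at an adjusted p under 0.05, 20.4% (2644) higher and 20.7% (2680) lower in senescent libraries. Scaled by total counts instead, the split was 4861 higher and 1285 lower, as the all-gene median of the log2 fold change was then 0.33 instead of 0.01, and without senescent replicate 3 only 1489 were lower. The shares of 20.4% and 20.7% are the background for the gene lists below. The summed level of 10 hepatocyte markers ran from 107866 to 122238 CPM in the healthy group and from 61535 to 74414 CPM in the senescent group, and 6 of the 10 were called lower. Alb, the gene of albumin, made up most of this sum, with 79836 to 99374 CPM in the healthy group and 49015 to 55966 CPM in the senescent group. Hnf4a, Tdo2, Cps1 and Fah were not called, with log2 fold changes of 0.02, -0.01, 0.14 and -0.21. Markers of other liver cells were far below these sums. Macrophage markers came to 83.8 to 224 CPM in the healthy group and 211 to 408 CPM in the senescent group (2 of 10 called higher), stellate cell markers to 15.2 to 26.6 and 41.3 to 58.7 CPM (6 of 10 higher). Endothelial markers came to 108 to 129 and 120 to 158 CPM (1 of 9 higher), cholangiocyte markers to 4.70 to 8.05 and 11.4 to 16.3 CPM (2 of 4 tested, of 6, higher). Neutrophil markers came to 0.636 to 1.45 and 3.09 to 4.35 CPM (3 of 3 tested, of 8, higher) and lymphocyte markers to 0.212 to 0.808 and 0.554 to 1.13 CPM (0 of 8 tested). No marker was at 0 in every library. The part of these markers in the members' values was not tested. In bulk RNA of this kind, fewer cells of a type and less RNA per cell cannot be told apart.

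Of the 10 members, 9 had enough reads to be fitted and Serpina3c did not. The groups did not overlap for 7 members, 1 higher and 6 lower in senescent libraries, and the same 7 were called. Among all genes 54.0% did not overlap, 26.8% higher and 27.2% lower. Since the comparison itself chose the members, nothing is read from these counts. Serpina3n was the member that was higher, and the 5 Serpina1 genes and Serpina6 were the lower ones. Serpina3k and Serpina3m overlapped between groups. The table's code for healthy replicate 2 differs from its label by a letter. Without that library the log2 fold changes were 2.18 for Serpina3n, -2.68 for Serpina6, between -1.16 and -0.70 for the Serpina1 genes, -0.27 for Serpina3k and 0.36 for Serpina3m.

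**Figure D2:**
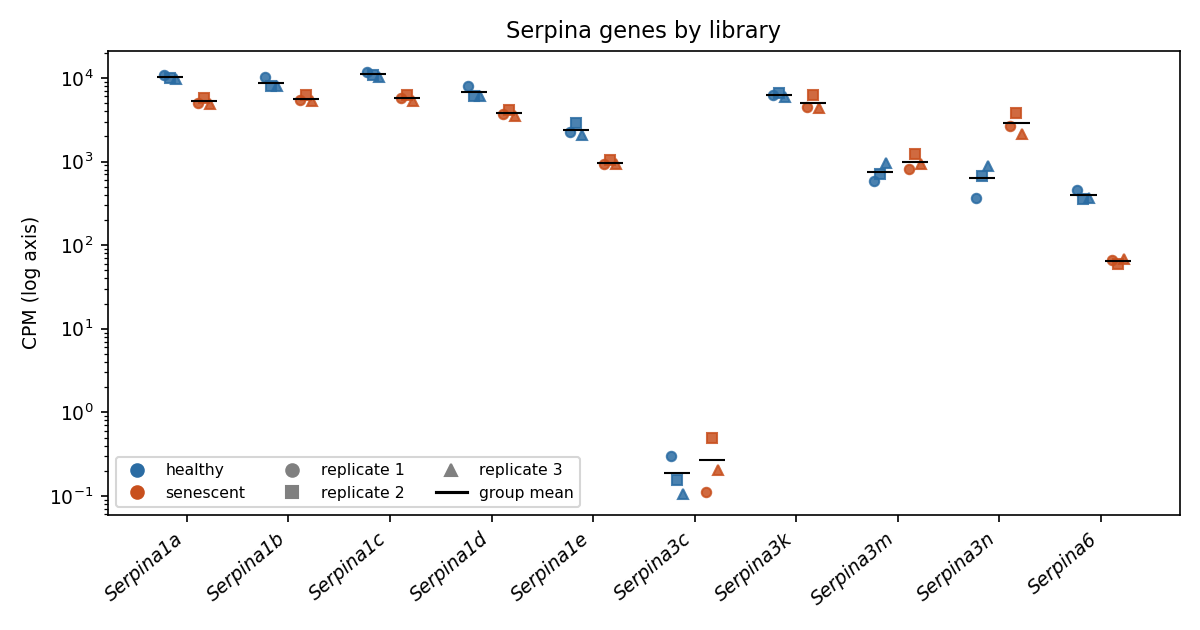
Level of each of the 10 members (x axis) in each library, in CPM on a log axis; colours give the group, marker shapes the replicate number and black lines the mean of 3 libraries. Healthy and senescent points are apart for the 5 Serpina1 genes, Serpina3n and Serpina6, and mixed for Serpina3c, Serpina3k and Serpina3m.

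All 5 alpha-1-antitrypsin genes were lower in senescent libraries. Added together, they took 3.86%, 3.36% and 3.31% of all counts in healthy replicates 1, 2 and 3 and 2.36%, 2.50% and 2.28% in senescent replicates 1, 2 and 3. In CPM the sum was 43237, 37705 and 36394 in the healthy and 20973, 23488 and 19820 in the senescent libraries. Every healthy library was above every senescent one. The mean went from 39112 ± 3632 to 21427 ± 1876 CPM (SD, n = 3 each), which is 0.548 of the healthy level, or -0.87 on the log2 scale. Scaled by total counts the difference was -0.56.

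Serpina1c (chr12:103894926-103904887, minus strand) had the highest mean read count of the copies. Its level was 11821, 10800 and 10364 CPM in healthy replicates 1, 2 and 3 and 5750, 6232 and 5278 CPM in senescent replicates 1, 2 and 3. The senescent libraries lay close together and none reached a healthy one. The log2 fold change was -0.93 ± 0.17 (SE), with means of 10995 ± 748 and 5753 ± 477 CPM. By mean CPM the gene went from rank 6 of all genes in healthy to rank 13 in senescent libraries.

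Serpina1a (chr12:103853589-103863562, minus strand), which shares most of its windows with Serpina1c, ran beside it. It had 10917, 9946 and 9743 CPM in the healthy and 5070, 5803 and 4873 CPM in the senescent libraries, a log2 fold change of -0.96 ± 0.17. Serpina1b (chr12:103728156-103830373, minus strand), whose gene model runs across Serpina1d, had 10197, 7951 and 8093 CPM in the healthy and 5474, 6307 and 5235 CPM in the senescent libraries. Its log2 fold change, -0.62 ± 0.18, was the smallest in size of the 5 copies. When libraries were scaled by total counts it was -0.32. In the fit of all genes Serpina1b was then not called, nor was it when any 1 of the senescent libraries was left out. As the comparison chose the members, these calls are a description and not a test.

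Serpina1d (chr12:103763594-103773592, minus strand) was highest in healthy replicate 1, at 8049 CPM, with 6103 and 6130 CPM in healthy replicates 2 and 3. Its senescent libraries had 3748, 4106 and 3498 CPM, all below the healthy ones, and its log2 fold change was -0.84 ± 0.18. Serpina1e (chr12:103946931-103958975, minus strand) was the least abundant copy and differed most, from 2252, 2905 and 2063 CPM in the healthy to 930, 1041 and 936 CPM in the senescent libraries. Its log2 fold change was -1.31 ± 0.17, and the senescent values were closely grouped (969 ± 62.1 CPM) while the healthy ones spread more (2407 ± 442 CPM). Of the 5 copies it shares the fewest windows with the others.

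The makeup of the alpha-1-antitrypsin reads moved by a few percentage points. Serpina1b held 23.6%, 21.1% and 22.2% of them in healthy replicates 1, 2 and 3 and 26.1%, 26.8% and 26.4% in senescent replicates 1, 2 and 3, so all 3 senescent shares were above the healthy ones. Serpina1e went the other way, from 6.19% ± 1.33 to 4.53% ± 0.167, and Serpina1a from 26.1% ± 0.790 to 24.5% ± 0.277 (SD, n = 3 each), both without overlap. The shares of Serpina1c (28.2% and 26.9%) and Serpina1d (17.2% and 17.7%) overlapped between groups. These shares do not depend on the scaling between libraries, but they do depend on how shared reads were assigned.

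**Figure D3:**
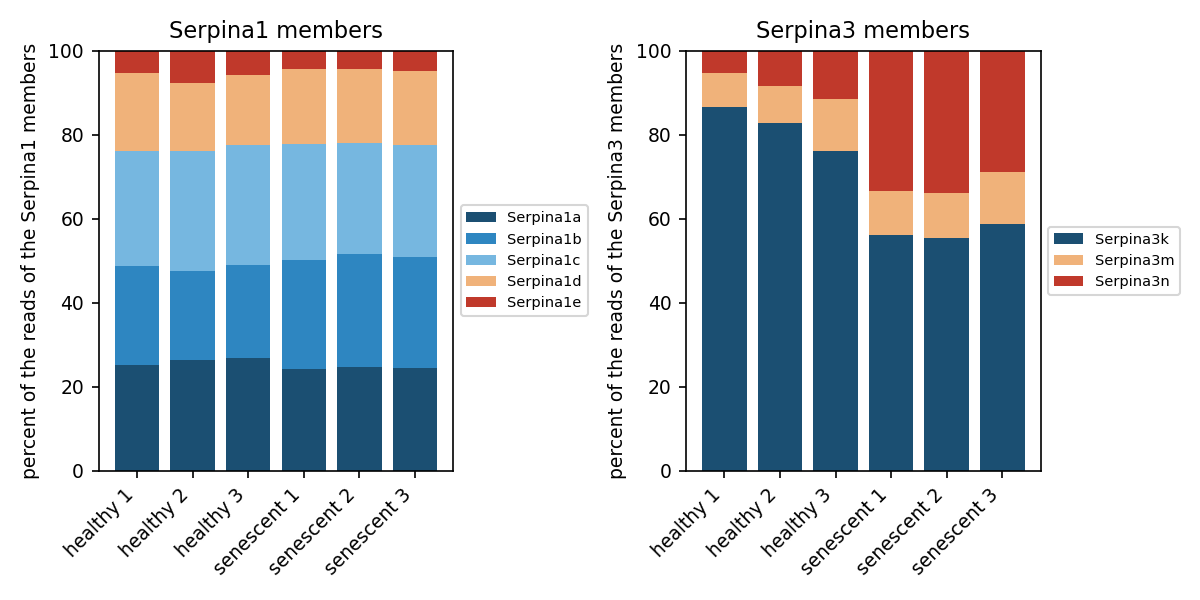
Stacked bars from 0 to 100 giving, for each library (x axis), the percent of the reads of the 5 Serpina1 genes (left) and of Serpina3k, Serpina3m and Serpina3n (right) that fell on each gene; Serpina3c, under 0.005% everywhere, is not drawn. The left bars look alike across libraries, while on the right the Serpina3n segment is 5.19% to 11.6% in healthy and 28.9% to 33.8% in senescent libraries.

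The Serpina3 genes did not move together. Their sum was 7133, 7984 and 7738 CPM in healthy replicates 1, 2 and 3 and 7944, 11384 and 7398 CPM in senescent replicates 1, 2 and 3. The groups overlapped, with means of 7618 ± 438 and 8909 ± 2161 CPM and a log2 ratio of 0.23, and senescent replicate 2 stood above the other libraries. Scaled by total counts the log2 ratio was 0.53.

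Serpina3n (chr12:104406729-104414329, plus strand) was the member that was higher in senescent libraries. It had 370, 663 and 896 CPM in healthy replicates 1, 2 and 3 and 2656, 3846 and 2135 CPM in senescent replicates 1, 2 and 3. The lowest senescent library was above the highest healthy one, although the healthy libraries themselves differed up to 2.42-fold. The log2 fold change was 2.16 ± 0.34, and the ratio of the means, 643 ± 264 and 2879 ± 877 CPM, was 4.48-fold. By mean CPM the gene went from rank 222 to rank 41 of all genes. With any 1 library left out, the log2 fold change lay between 1.88 and 2.47.

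Serpina3k (chr12:104338486-104346144, plus strand), the most abundant gene of the Serpina3 group, did not separate the groups. It had 6176, 6620 and 5889 CPM in the healthy and 4466, 6302 and 4342 CPM in the senescent libraries, and senescent replicate 2 lay within the healthy range. The log2 fold change was -0.31 ± 0.19, and -0.003 when libraries were scaled by total counts. Serpina3m (chr12:104338486-104394257, plus strand), its closest relative here, had 587, 701 and 953 CPM in the healthy and 822, 1235 and 922 CPM in the senescent libraries. Its groups overlapped too, with a log2 fold change of 0.41 ± 0.22. Without healthy replicate 3 the value was 0.62, and with scaling by total counts it was 0.71.

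Within a library, Serpina3n gained on Serpina3k in a ratio that no scaling between libraries affects. There were 0.0599, 0.100 and 0.152 Serpina3n reads per Serpina3k read in healthy replicates 1, 2 and 3 and 0.595, 0.610 and 0.492 in senescent replicates 1, 2 and 3. Serpina3n held 5.19%, 8.30% and 11.6% of the Serpina3 reads in the healthy and 33.4%, 33.8% and 28.9% in the senescent libraries. Serpina3k held 81.9% ± 5.32 and 56.8% ± 1.73 (SD, n = 3 each), and the share of Serpina3m overlapped between groups, at 9.78% and 11.2%.

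Serpina3c (chr12:104146382-104153870, minus strand) was barely read. It had 9, 4 and 3 counts in healthy replicates 1, 2 and 3 and 4, 17 and 7 counts in senescent replicates 1, 2 and 3. A count of 0 would allow up to 3 counts, or 0.0837 to 0.117 CPM, and healthy replicate 3 was at that limit, while senescent replicate 2 was above the other libraries. With so few reads no fold change is given. Limits of this kind cover counting error only.

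Serpina6 (chr12:103646630-103657212, minus strand), the gene of corticosteroid-binding globulin, differed most in size. It had 461, 356 and 367 CPM in healthy replicates 1, 2 and 3 and 66.9, 59.3 and 68.2 CPM in senescent replicates 1, 2 and 3. Both groups were closely grouped and far apart. The log2 fold change was -2.61 ± 0.15, and the healthy mean of 395 ± 57.4 CPM was 6.10-fold above the senescent mean of 64.8 ± 4.83 CPM. It went from rank 359 to rank 1994 of all genes by mean CPM, and between -2.68 and -2.29 under every alternative tried. No other gene shares its 75-base windows.

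Levels were compared between members per length of 1 transcript each, the shortest with a long open reading frame. All exons together are longer for some members, at 2415 against 1394 bases for Serpina1b and 1832 against 1360 bases for Serpina1a. The order below rests on this choice and, for the Serpina1 copies, on how shared reads were assigned. In healthy libraries the order in CPM per kb was Serpina1c (8079), Serpina1a (7502), Serpina1b (6275) and Serpina1d (4850), each of which overlapped the next. After a gap came Serpina3k (3028) and Serpina1e (1859), which overlapped neither each other nor their neighbours. Serpina3m (451), Serpina3n (312) and Serpina6 (246) followed, each overlapping the next, with Serpina3c last (0.0851). In senescent libraries Serpina1c (4227), Serpina1b (4069) and Serpina1a (3859) were neighbours that overlapped, then Serpina1d (2715) and Serpina3k (2448), which also did. Serpina3n came next at 1395 CPM per kb, above Serpina1e (748) and Serpina3m (599), which overlapped each other. Serpina6 (40.4) and Serpina3c (0.122) closed the order.

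Along the cluster, the Serpina1 genes lay close together in fold change and the Serpina3 genes lay apart. Between Serpina10 and Serpina3n, over 799.5 kb, the table lists 29 genes, of which 15 had enough reads to be fitted and 5 had no read in any library. The 6 that are not members included Serpina10, which encodes a partner of protein Z that inhibits clotting factor Xa and lies beside Serpina6. Its log2 fold change was -0.06 ± 0.19, next to -2.61 for Serpina6. Gm8893, an unprocessed pseudogene among the Serpina1 copies, had a log2 fold change of -0.995 ± 0.15, from a mean of 1153 to 579 CPM, but 38.7% of its 75-base windows also occur in the Serpina1 genes. Serpina11 was called lower, from 48.4 ± 11.8 to 20.2 ± 3.99 CPM (log2 fold change -1.26 ± 0.21; edgeR quasi-likelihood test, adjusted p = 0.0021). Serpina12, the gene of vaspin, had -0.40 ± 0.34. Serpina3f and Serpina3g, at 0.77 ± 0.36 and 0.79 ± 0.32, were not called. Of the 16 other serpins of the cluster, 5 were fitted, 0 were called higher (1 at an unadjusted p under 0.05, 0 by DESeq2) and 1 lower, with a median of -0.06. The number called lower was 2 when any 1 of the senescent libraries or healthy replicate 3 was left out, and 2 were higher with scaling by total counts.

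**Figure D4:**
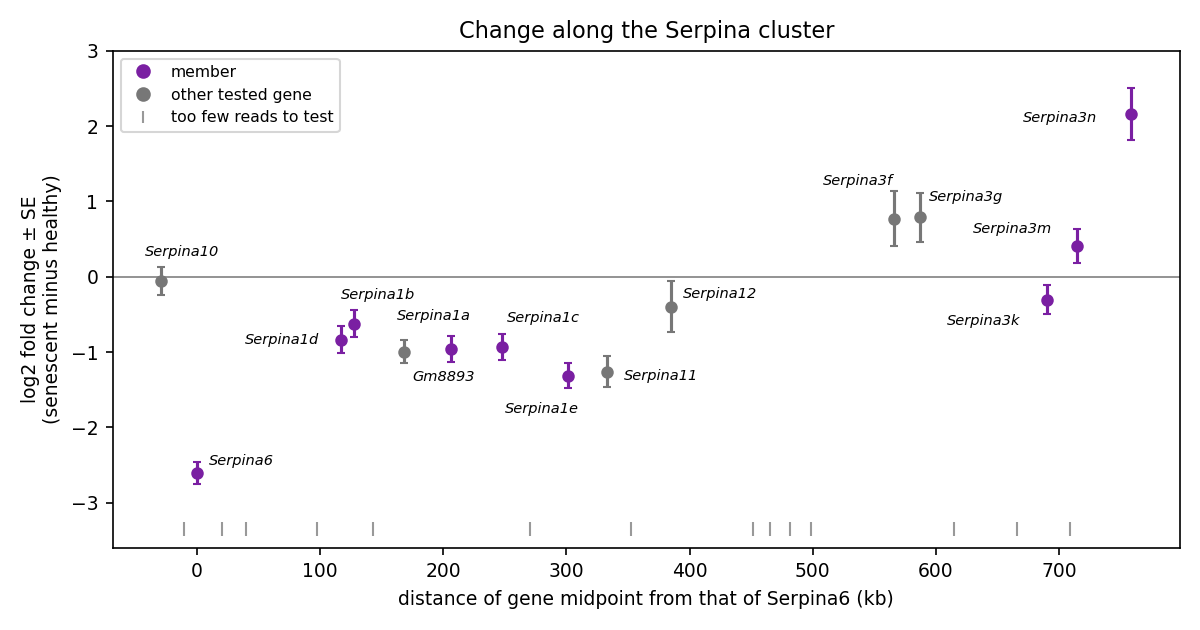
Log2 fold change with SE (senescent minus healthy, y axis) of the 15 fitted genes against the distance of each gene's midpoint from that of Serpina6 in kb (x axis); purple points are members, grey points other genes, and ticks mark genes with too few reads. The Serpina1 genes lie between -1.31 and -0.62, Serpina6 at -2.61 and Serpina3n at 2.16.

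A stretch just upstream of the RefSeq starts of the Serpina1 genes is nearly the same in all 5, as the genes are. RefSeq promoter windows (GRCm38.p6, 250 bases before to 50 after the start) were matched for 7 of the 10 members. A stretch of 96 bases that starts 96 to 158 bases before the RefSeq start lines up without a gap in all 5 Serpina1 windows and holds no exonic base. It was set by lining the windows up on the letters GTTAAT and covers only part of each window. In the GENCODE gene models the stretches of Serpina1b and Serpina1e lie within their own gene, and that of Serpina1d lies within the Serpina1b model. Capitals mark the 10 bases at which the 5 genes are not all alike. Against Serpina1c, 2 bases differ in Serpina1a and Serpina1e, 3 in Serpina1b and 6 in Serpina1d. The stretch is shown because these 5 genes moved in the same direction, and whether it has a part in that was not tested.
Serpina1a, chr12:103863625-103863720 minus strand: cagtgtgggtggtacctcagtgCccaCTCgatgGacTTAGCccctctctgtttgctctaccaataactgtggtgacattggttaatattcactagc
Serpina1b, chr12:103738200-103738295 minus strand: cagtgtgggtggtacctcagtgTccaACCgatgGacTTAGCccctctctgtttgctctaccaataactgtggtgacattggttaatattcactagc
Serpina1c, chr12:103904962-103905057 minus strand: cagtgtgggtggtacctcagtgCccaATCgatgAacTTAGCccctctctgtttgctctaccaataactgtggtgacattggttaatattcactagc
Serpina1d, chr12:103773634-103773729 minus strand: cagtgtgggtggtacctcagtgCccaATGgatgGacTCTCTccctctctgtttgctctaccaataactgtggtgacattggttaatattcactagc
Serpina1e, chr12:103956960-103957055 minus strand: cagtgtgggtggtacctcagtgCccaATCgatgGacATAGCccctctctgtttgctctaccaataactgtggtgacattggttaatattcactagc

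Serpina3n and Serpina3c, in contrast, have nearly the same upstream sequence and very different levels. Of 195 aligned bases starting 200 bases before the Serpina3n start, 184 (94.4%) are identical. Capitals mark the bases that differ.
Serpina3n, chr12:104406508-104406702 plus strand: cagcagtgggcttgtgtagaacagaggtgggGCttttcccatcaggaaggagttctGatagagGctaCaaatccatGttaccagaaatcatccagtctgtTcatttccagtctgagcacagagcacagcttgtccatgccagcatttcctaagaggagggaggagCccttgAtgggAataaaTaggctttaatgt
Serpina3c, chr12:104153875-104154069 minus strand: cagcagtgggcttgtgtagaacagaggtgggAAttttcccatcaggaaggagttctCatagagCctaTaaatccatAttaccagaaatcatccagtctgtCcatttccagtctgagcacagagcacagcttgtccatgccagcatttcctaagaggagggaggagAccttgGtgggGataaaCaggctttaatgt

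The consensus decamer of p53 sites occurs at -214 in the Serpina3n and at -211 in the Serpina3c window, and in 8.36% of 32851 such windows of all genes. TTCNNNGAA, a pattern of STAT sites, occurs in 8.30% of all windows and in none of the matched members. Both strands were searched for each pattern, and a match is a description of letters and not of binding.

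The genes with the most similar profiles were sought among 7246 fitted genes of at least 10 CPM, by the root mean square difference of centred log2 CPM over the 6 libraries. For Serpina1c the nearest was Serpina1a (0.0290), with which it shares reads, then Sub1 (0.0346), the gene of a transcriptional coactivator, and Mzt2 (0.0651), a gene of the gamma-tubulin complex. For Serpina3n they were Cpne2 (0.281), a gene of the copine family, Icam1 (0.297), the gene of an adhesion molecule for leukocytes, and Susd6 (0.300). Icam1 went from 11.7 ± 2.54 to 54.5 ± 1.45 CPM, and Susd6 from 33.8 ± 7.56 to 151 ± 11.4 CPM. For Serpina6 they were Crat (0.213), which encodes carnitine acetyltransferase, Nat8f1 (0.213), and Gamt (0.214), which encodes an enzyme of creatine synthesis. Gamt went from 183 ± 19.1 to 37.4 ± 3.52 CPM. The libraries are the same for every gene, so these distances are a description.

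Serpina3n is an acute phase gene, and no gene of a list of 20 others was called higher. Of these 20 genes for acute phase proteins, plasma proteins whose synthesis in the liver rises in inflammation, edgeR called 0 higher and 5 lower, with a median log2 fold change of -0.58 against 0.01 over all genes. Over all fitted genes edgeR called 20.4% higher and 20.7% lower. At an unadjusted p under 0.05 the list had 0 higher and 8 lower, and DESeq2 called 0 higher and 10 lower in it. Crp, the gene of C-reactive protein, fell from 479 ± 125 to 191 ± 43.4 CPM (log2 fold change -1.33 ± 0.24, edgeR adjusted p = 0.0032). Lbp, whose product binds bacterial lipopolysaccharide, fell from 189 ± 80.002 to 44.0 ± 15.2 CPM (-2.11 ± 0.38, edgeR adjusted p = 0.0032). Saa3, Il1rn and Hp, named after their values were seen, were the other 3. The number called lower was 3 without senescent replicate 2 or 3 or without healthy replicate 2 or 3, and 11 without healthy replicate 1, and 1 gene was called higher without healthy replicate 3. Scaled by total counts, 1 was higher and 3 were lower. Whether Serpina3n differs from this list was not tested.

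**Figure D5:**
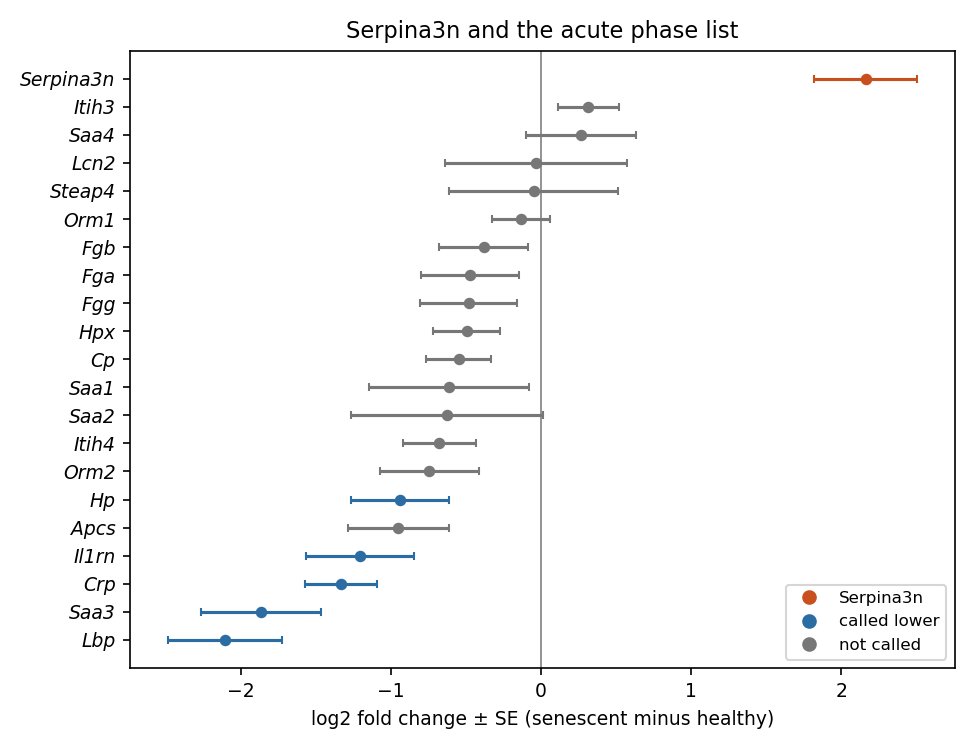
Log2 fold change with SE (senescent minus healthy, x axis) of Serpina3n and of the 20 acute phase genes (y axis, sorted); blue points were called lower and grey points were not called. Serpina3n, at 2.16, stands to the right of all 20 genes, whose values run from -2.11 for Lbp to 0.32 for Itih3.

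Genes of interleukin-6, interleukin-1, STAT3 and NF-kB signalling, which drive acute phase genes in hepatocytes, were called in both directions. Of 15 genes 4 were called higher and 1 lower, with a median of 0.37. Osmr, the oncostatin M receptor, rose from 1.37 ± 0.808 to 10.4 ± 0.695 CPM (edgeR adjusted p = 0.00036), and Rela, a subunit of NF-kB, from 46.6 ± 4.75 to 76.8 ± 1.95 CPM (edgeR adjusted p = 0.0017). Lifr, the leukaemia inhibitory factor receptor, fell from 288 ± 39.3 to 200.4 ± 16.9 CPM (edgeR adjusted p = 0.018), a call that was lost without senescent replicate 2 or 3. With scaling by total counts 8 were called higher and 0 lower, and without healthy replicate 1 there were 3 lower. The summed macrophage markers, as given above, overlapped between groups, but their median log2 fold change was 0.97 against 0.01 over all genes. Of the 10 markers edgeR called 2 higher, 6 were higher at an unadjusted p under 0.05, and DESeq2 called 5 higher. The part of these markers in the values of the signalling genes was not tested.

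Hepatocyte transcription factors, several of which are known to bind the Serpina1 promoter, were mostly lower where they were called. Of 11 genes 1 was called higher and 5 lower, with a median of -0.46. The other 5 were not called, among them Hnf4a, the most abundant of the 11, at 795 ± 169 and 805 ± 107 CPM (log2 fold change 0.02). The part of these factors in the Serpina1 values was not tested. Cebpa, a factor of mature hepatocytes, fell from 398 ± 44.5 to 144 ± 11.0 CPM (log2 fold change -1.47 ± 0.13, edgeR adjusted p = 1e-04). Foxa1, a pioneer factor of the liver, fell from 16.3 ± 6.30 to 8.03 ± 0.878 CPM (edgeR adjusted p = 0.016), and its relative Foxa3 rose from 39.3 ± 13.96 to 64.0 ± 3.67 CPM (edgeR adjusted p = 0.036). The call of Foxa1 was lost without senescent replicate 3 and with scaling by total counts, and that of Foxa3 without any 1 library except healthy replicate 3, where 2 genes were higher. Without senescent replicate 3 only 1 of the 11 was lower, without senescent replicate 1 there were 3 and without healthy replicate 2 there were 2. With scaling by total counts 3 were higher and 1 lower.

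Around Serpina6, the glucocorticoid list was mixed. Of 14 genes 2 were called higher and 4 lower, with a median of -0.14. The shares over all fitted genes were 20.4% higher and 20.7% lower. Nr3c1, the glucocorticoid receptor, rose from 67.2 ± 6.76 to 94.6 ± 3.73 CPM (edgeR adjusted p = 0.0098). Hsd11b1, whose enzyme regenerates active glucocorticoid, fell from 595 ± 21.1 to 239 ± 20.8 CPM (log2 fold change -1.31 ± 0.13, edgeR adjusted p = 0.00012). Of the steroid reductase genes, Akr1d1 fell from 238 ± 20.0 to 150.02 ± 11.5 CPM (edgeR adjusted p = 0.0033) and Srd5a1 rose from 45.5 ± 13.1 to 72.5 ± 15.7 CPM (edgeR adjusted p = 0.049). The call of Srd5a1 was lost when senescent replicate 1 or 3, or healthy replicate 1 or 3, was left out, leaving 1 gene called higher. With scaling by total counts Akr1d1 lost its call and 2 genes of the list were lower, a drop not due to Akr1d1 alone. Growth hormone and STAT5 genes, which act in hepatocytes downstream of the growth hormone receptor, had 0 of 10 called higher by edgeR (0 at an unadjusted p under 0.05 and 0 by DESeq2) and 4 lower, with a median of -0.36. Igfals, the acid-labile subunit that carries IGF1, fell from 209 ± 55.9 to 66.6 ± 23.4 CPM (edgeR adjusted p = 0.0023), and Socs2, a STAT5 target, from 60.1 ± 37.3 to 11.0 ± 1.46 CPM (edgeR adjusted p = 0.0024).

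Serpins elsewhere in the genome gave 2 called higher and 6 lower of 14 fitted genes, with a median of -0.40. Serpine2, the gene of protease nexin 1, rose from 1.53 ± 0.682 to 53.7 ± 21.8 CPM (log2 fold change 5.14 ± 0.44, edgeR adjusted p = 7e-05). Serpinf1, the gene of pigment epithelium-derived factor, fell from 591 ± 106 to 162 ± 10.9 CPM, and Serpinb1a, an inhibitor of neutrophil proteases, from 9.09 ± 4.52 to 0.325 ± 0.0731 CPM (edgeR adjusted p = 6.7e-05 and 0.00015). Serpinb6a rose from 4.79 ± 1.60 to 8.84 ± 1.89 CPM (edgeR adjusted p = 0.031), a call lost without senescent replicate 3 or healthy replicate 2, which left 1 gene higher.

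Of 12 genes of proteases that serpins of these families can meet, many of them made by neutrophils and mast cells, 5 had enough reads to be fitted, and Mcpt4 and Tpsab1 had no read in any library. St14, the gene of the epithelial membrane protease matriptase, had 2, 1 and 0 counts in healthy replicates 1, 2 and 3 and 7334, 7722 and 7963 counts in senescent replicates 1, 2 and 3 (edgeR adjusted p = 2.7e-07). Klkb1, the gene of plasma prekallikrein, fell from 129 ± 16.01 to 35.8 ± 12.7 CPM (edgeR adjusted p = 0.00058) and Tmprss6, the gene of matriptase-2, from 662 ± 68.3 to 382 ± 25.9 CPM (edgeR adjusted p = 0.0023). In all 1 was called higher and 3 lower, with a median of -0.79.

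Genes for folding and export of secreted proteins, through which alpha-1-antitrypsin leaves the endoplasmic reticulum, were called in both directions. Of 15 genes 2 were called higher and 2 lower, with a median of -0.07, beside 20.4% higher and 20.7% lower over all fitted genes. Canx, the lectin chaperone calnexin, rose from 397 ± 32.7 to 698 ± 19.8 CPM (edgeR adjusted p = 0.0015), and Uggt1, the sensor that returns misfolded glycoproteins to it, from 77.9 ± 6.05 to 109 ± 7.04 CPM (edgeR adjusted p = 0.0096). Pdia4 and Sel1l fell from 243 ± 58.4 to 158 ± 23.2 CPM and from 155 ± 56.9 to 94.4 ± 7.39 CPM (edgeR adjusted p = 0.030 and 0.037). Both of these calls were lost without any 1 of the senescent libraries and with scaling by total counts, where 4 genes were higher, and that of Pdia4 also without healthy replicate 3.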

How the data were processed

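Polyadenylated RNA of 6 libraries was analysed, 3 senescent and 3 healthy, grouped by their titles. Per the labels' protocols, each library took 500 ng of total RNA and was prepared with a directional kit and 10 PCR cycles. The authors deposited whole-number read counts per gene, not normalised, in a single table. Per the submitters' processing notes the tools include the aligner STAR 2.7.1a, the trimmer cutadapt 1.16, DESeq2 1.34.0 and featureCounts, with build GRCm38. The settings, read length and annotation release are not stated there. The column taken as healthy replicate 2 bears a code that differs from its label in a single letter. Rows without a gene name numbered 0, and 32009 IDs had a symbol.

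Counts were tested with edgeR 4.0.16 in R 4.3.3 (quasi-likelihood F test, two-sided, no covariate) on TMM-scaled libraries, for genes kept by filterByExpr (at least 10 counts, 15 in total). Benjamini-Hochberg adjustment ran over these 12949 genes, with calls under 0.05. The SE is the log2 fold change over the square root of F. CPM are counts over library size times the TMM factor, given as mean ± SD. Alternatives were DESeq2 1.42.0, its size factors in edgeR, total library size, TMM without the 50 most abundant genes, a minimum mean of 1 CPM, no filter, the replicate number as a block, and each library left out. With 1 library left out, the group of 2 shares its spread estimate with the other group.

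The members and gene lists were chosen with earlier results of these data known. Genes named are all members; from each list the 2 called higher and 2 called lower with the smallest p; the 3 nearest profiles of Serpina3n, Serpina1c and Serpina6, without predicted genes and pseudogenes; and Mdm2 and Cdkn1a. A gene of the hepatocyte factor list is not reported here and was left out of it. The other cluster genes were named for their position. Gene positions and transcripts come from GENCODE M21 (GRCm38) and promoters from RefSeq, matched by symbol.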

Additional observations from a re-analysis of the deposited data

How the results depend on the processing

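With scaling by total library size, 4861 genes were called higher and 1285 lower, and 2 members higher and 5 lower. The log2 ratios of the Serpina1 and Serpina3 sums were then -0.56 and 0.53. Leaving out each library in turn gave 1836 to 2691 genes higher and 1489 to 2789 lower, and 1 to 2 members higher and 5 to 6 lower. Of 117 values recomputed for the 9 fitted members, 110 moved by less than the spread between libraries, 7 moved by more, all with total library size, and 0 changed sign. With each library left out in turn, the range was -0.92 to -0.78 for the Serpina1 sum, 0.05 to 0.38 for the Serpina3 sum, 22.1 to 25.3 percentage points for the Serpina3n share and -1.70 to -1.05 for the Serpina1c share (log2 ratios for the sums). Of 28 genes named from the lists or as label checks, 8 lost the call in some alternative and 0 changed sign. Over all alternatives, the lists had 3 to 11 acute phase genes lower, 3 to 8 interleukin and STAT3 signalling genes higher and 1 to 5 hepatocyte factors lower. No pairing by replicate number was seen. Deviations of same-numbered libraries correlated at 0.228, -0.174 and -0.0434, and those of libraries of unlike number at -0.329 to 0.380. With 3 libraries a group these values constrain each other, so they cannot exclude a pairing. With the replicate block 2576 genes were higher and 2625 lower, and the members' calls were the same. Under it Serpinb6a and Pdia4 lost their calls (adjusted p = 0.052 and 0.056, edgeR), which left 1 serpin elsewhere higher and 1 folding gene lower, and 2 other cluster serpins and 2 signalling genes were lower. Depth limits Serpina3c, with 3 to 17 counts a library.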

Other observations

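The libraries within each group were put in order by Serpina3n, an order chosen after the values were seen, and the same order was looked for in 3 lists. Of 20 acute phase genes, 10 had the healthy libraries and 11 the senescent libraries in the same order as Serpina3n, and 7 had both (Saa2, Saa4, Orm2, Fga, Fgb, Fgg and Il1rn). Of 15 interleukin-6, interleukin-1 and STAT3 signalling genes the numbers were 9, 1 and 1, and of 11 hepatocyte factors 3, 1 and 0. Among all 12949 fitted genes the shares were 19.2%, 12.97% and 2.33%. Genes of a list were read in the same libraries and are not independent of each other, so these counts are a description and nothing was tested. Saa2, a serum amyloid gene, had 183, 429 and 945 CPM in healthy replicates 1, 2 and 3 and 429 to 471 CPM in senescent replicates 1 and 2, with 107 CPM in senescent replicate 3. The groups of Saa2 overlapped while those of Serpina3n did not.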
